A study of Mus musculus with 8 samples.

Results

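The genes of fatty acid oxidation and the targets of the peroxisome proliferator-activated receptors (PPARs) were followed in macrophages sorted from liver metastases of mice on 2 diets. The 29 members were chosen by name: the carnitine shuttle, the enzymes of beta-oxidation, the proteins that pass its electrons on, the PPARs with their coactivators, and PPAR targets. All 29 were found among the 42649 genes of the count table. RNA sequencing covered 8 libraries from C57BL/6 mice, a common inbred strain, with no genetic alteration named in the labels. The control group (CD, replicates 1 to 4) ate a diet with 10% of energy from fat, and the high-fat group (HFD, replicates 1 to 4) ate one with 60%. Both groups had 6 weeks of their diet before an injection of MC38, a colon carcinoma line of this strain, into the spleen, a route that seeds tumours in the liver. Both groups therefore carried tumours, and no tumour-free mice and no other macrophages were compared. The metastases were taken 19 days after injection, and cells positive for CD45, CD11b and F4/80 were sorted as tumour-associated macrophages. The sources used here give neither the age and sex of the mice nor the diet during those 19 days.

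Beta-oxidation shortens fatty acids inside mitochondria. Long-chain acyl groups are handed to carnitine at the outer membrane, carried through the inner membrane and handed back to coenzyme A, after which a dehydrogenase, a hydratase, a second dehydrogenase and a thiolase act in turn and release acetyl-CoA. PPARs are nuclear receptors that bind fatty acids, pair with the retinoid X receptors and switch on many genes of this pathway. In macrophages PPARs are known for controlling lipid uptake and storage, and fatty acid oxidation is often discussed in connection with alternatively activated macrophages.

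Total counts ran from 37180157 to 55717378 per library. The genes of the sort markers, Ptprc (CD45), Itgam (CD11b) and Adgre1 (F4/80), were counted in every library, and summed to 355 to 373 CPM in CD and 317 to 861 CPM in HFD. Of these 3 genes only 1 had a log2 fold change, HFD minus CD, above 0. The 3 values ran from -0.55 to 1.56, with a median of -0.26. CPM are counts scaled to a common library size, here with edgeR's trimmed mean of M-values (TMM). Replicates 3 and 4 of CD differed from the remaining 6 libraries: genes with counts numbered 34495 and 33449 there against 21571 to 24556 elsewhere. Genes of the mitochondrial genome took 9.15% and 10.7% of their counts, against 2.58% to 7.68%, and the part of this in the values of the members was not tested. Their 16 neutrophil genes summed to 109816 and 111374 CPM, against 1652 and 1996 CPM in CD replicates 1 and 2 and 542 to 7561 CPM in HFD. Comparisons are therefore also given without CD replicates 3 and 4, which leaves CD replicates 1 and 2 against 4 HFD libraries.

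Most members had higher values in HFD, but no member passed the test over all genes. Of the 29 members, 25 passed the filter on low counts, and 19 of these 25 had a fold change above 0. The median log2 fold change, HFD minus CD, was 0.65 over the 25 tested members and 0.01 over the 17367 genes tested. By edgeR's quasi-likelihood test 0 members were past an adjusted p of 0.05 in either direction, where 0% of all genes were called higher and 0.00576% lower. At an unadjusted p under 0.05, 11 members were higher, against 5.31% of all genes, and 0 members were lower, against 7.56%. DESeq2 on the same counts called 3 members higher (Angptl4, Acot2 and Acaa2) and 0 lower, against 0.823% and 2.86% of all genes. In 8 members all 4 HFD libraries lay above all 4 CD libraries, which held for 3.57% of all genes. These were Cpt2, Acadm, Acads, Hadh, Acaa2, Decr1, Angptl4 and Acot2. No member had all 4 HFD libraries below all 4 CD libraries, against 4.8% of all genes.

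The mean log2 CPM of the 25 tested members was 3.14, 3.14, 3.04 and 2.92 in CD replicates 1 to 4. It was 3.51, 3.53, 3.77 and 3.87 in HFD replicates 1 to 4. The 2 sets of values did not overlap, and the CD libraries that stood apart were the lowest of all 8. Without CD replicates 3 and 4 the median log2 fold change of the members was 0.36, and 5 members were higher at an unadjusted p under 0.05 (Cpt1a, Acaa2, Angptl4, Acot1 and Acot2), against 2.92% of all genes, with 0 lower against 2.58%. All 4 HFD libraries lay above CD replicates 1 and 2 in 10 of the 25 tested members, against 8.12% of all genes.

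**Figure D1:**
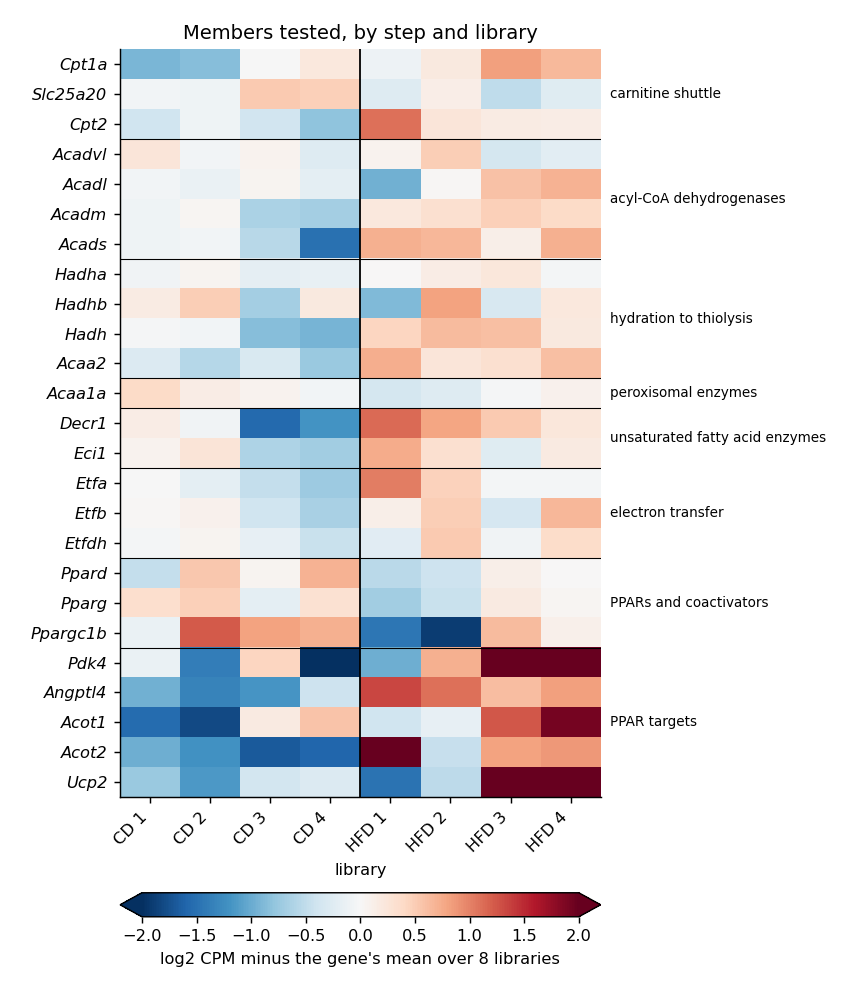
Heat map of the 25 tested members (rows, grouped by step) in the 8 libraries (columns). Colour is log2 CPM minus the gene's mean over 8 libraries, from blue (low) to red (high), with the scale ending at 2.0 in each direction. The left 4 columns are CD and the right 4 HFD; Decr1, Acads and Hadh are bluest in CD replicates 3 and 4, and Ucp2 and Pdk4 are red in HFD replicates 3 and 4.

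PPARs bind with a retinoid X receptor to a direct repeat of AGGTCA, with 1 base of any kind (N) between the copies. Promoter windows of 250 bases before to 50 bases after the gene start (RefSeq, GRCm38.p6) were read for 24 member genes with 26 windows. The closest match to the 12 fixed letters of this repeat was looked for on both strands. A match with up to 2 mismatches was found in 2 of the 26 windows (7.69%) and in 3.86% of all 32851 windows, and one with up to 3 mismatches in 6 (23.1%) and 24.6%. A single exact AGGTCA, which the repeat contains, was in 5 windows (19.2%) against 16.3% of all. The windows of Acot2, Hadh and Acads are shown as members with a small p. That of Etfa is shown for its match with 2 mismatches, the closest among scanned members at an unadjusted p under 0.05. The other window with 2 mismatches, that of Slc25a20, is not shown, and the log2 fold change of that gene was -0.445. The windows of Angptl4, Acaa2, Decr1, Cpt1b and Ppargc1b were not scanned, so the shares do not cover these members, among them Angptl4 with the smallest p of all members. Capitals mark the closest match, which had 3 mismatches in Acot2, 3 in Hadh and 4 in Acads. Hadha and Hadhb encode the subunits of one enzyme and start 86 bases apart on opposite strands, so the window of Hadhb is shown with the 85 bases between those starts in capitals. The windows of Etfa and Hadhb were picked after their values were seen. Each is printed 5′ to 3′ on the strand of its gene: Acot2 at chr12:83987611-83987910 (+), Hadh at chr3:131272052-131272351 (-), Acads at chr5:115119297-115119596 (-), Etfa at chr9:55512194-55512493 (-) and Hadhb at chr5:30155003-30155302 (+).
Acot2: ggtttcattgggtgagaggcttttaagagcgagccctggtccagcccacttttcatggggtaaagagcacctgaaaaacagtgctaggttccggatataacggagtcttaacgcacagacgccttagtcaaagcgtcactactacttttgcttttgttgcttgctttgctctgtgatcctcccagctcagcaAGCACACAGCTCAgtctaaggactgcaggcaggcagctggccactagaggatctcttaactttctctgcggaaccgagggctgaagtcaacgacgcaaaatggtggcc
Hadh: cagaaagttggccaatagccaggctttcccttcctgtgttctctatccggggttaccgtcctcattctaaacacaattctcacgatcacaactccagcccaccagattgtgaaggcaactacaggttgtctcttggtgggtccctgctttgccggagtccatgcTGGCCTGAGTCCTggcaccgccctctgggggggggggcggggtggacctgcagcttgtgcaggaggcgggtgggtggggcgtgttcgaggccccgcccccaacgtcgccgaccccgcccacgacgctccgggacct
Acads: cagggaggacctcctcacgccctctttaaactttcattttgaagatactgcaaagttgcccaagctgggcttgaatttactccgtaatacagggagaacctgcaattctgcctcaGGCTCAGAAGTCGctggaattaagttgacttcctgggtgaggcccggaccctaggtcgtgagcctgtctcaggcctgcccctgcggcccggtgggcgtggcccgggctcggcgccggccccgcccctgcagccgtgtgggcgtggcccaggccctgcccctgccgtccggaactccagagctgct
Etfa: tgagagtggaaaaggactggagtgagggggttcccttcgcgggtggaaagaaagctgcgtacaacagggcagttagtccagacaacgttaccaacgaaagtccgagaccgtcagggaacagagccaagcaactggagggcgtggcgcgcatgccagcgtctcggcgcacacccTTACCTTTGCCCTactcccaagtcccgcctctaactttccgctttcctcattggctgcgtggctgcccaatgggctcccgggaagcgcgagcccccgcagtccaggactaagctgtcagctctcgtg
Hadhb: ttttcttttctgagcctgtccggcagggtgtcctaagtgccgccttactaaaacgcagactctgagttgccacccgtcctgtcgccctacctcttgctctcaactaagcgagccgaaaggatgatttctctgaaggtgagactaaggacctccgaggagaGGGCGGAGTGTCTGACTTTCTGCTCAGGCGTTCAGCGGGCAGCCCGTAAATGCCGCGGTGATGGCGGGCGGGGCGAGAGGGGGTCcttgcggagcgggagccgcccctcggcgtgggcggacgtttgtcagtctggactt

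In the carnitine shuttle, both carnitine palmitoyltransferases had higher means in HFD, and the carrier between them a lower one in TMM-scaled CPM. Cpt1a (chr19:3322334-3385733, +) encodes the outer-membrane transferase that is the rate-limiting entry step. It was at 6.82, 7.15, 12.8 and 14.9 CPM in CD and at 12.05, 14.8, 22.8 and 20.3 CPM in HFD. The groups overlapped because CD replicates 3 and 4 were as high as HFD replicates 1 and 2. Within numbers 1 and 2, and within numbers 3 and 4, the HFD libraries lay above the CD libraries. The means were 10.4 ± 4.06 and 17.5 ± 4.92 CPM (SD, n = 4 per diet, as for all values below). The log2 fold change was 0.75 ± 0.34 (SE), with an unadjusted p of 0.0499 and an adjusted p of 0.388 by edgeR. Without CD replicates 3 and 4 it was 1.31. On the authors' FPKM, a level per transcript length, the groups did not overlap, with 0.788 to 1.26 in CD and 1.65 to 2.73 in HFD.

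Cpt2 (chr4:107903981-107923610, -), the inner-membrane transferase that returns the acyl group to coenzyme A, was at 2.92, 3.63, 2.95 and 2.18 CPM in CD. In HFD it was at 8.27, 4.58, 4.34 and 4.30 CPM. All HFD libraries were above all CD libraries, and HFD replicate 1 was well above the other 3. The log2 fold change was 0.88 ± 0.32 (edgeR, adjusted p = 0.311). Slc25a20 (chr9:108662088-108684641, +), the carnitine-acylcarnitine carrier, was at 21.9, 21.4, 32.7 and 31.7 CPM in CD and 19.0, 25.0, 16.02 and 19.1 CPM in HFD. Its high values were those of CD replicates 3 and 4, and the log2 fold change of -0.44 ± 0.26 (edgeR, adjusted p = 0.477) was -0.14 without them. Scaled by library size alone it was 0.06, where the median of all genes was 0.42. Cpt1b, the transferase isoform of muscle, had 0, 26, 0 and 2 counts in CD and 10, 0, 0 and 0 in HFD, and did not pass the filter.

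The 4 acyl-CoA dehydrogenases carry out the first oxidation on chains of different length. In the fit on all 8 libraries those for medium and short chains had the larger fold changes, and differences between the genes were not tested. All 4 fold changes were above 0, with a median of 0.47, and 2 of the 4 were at an unadjusted p under 0.05. Acadm (chr3:153922357-153944632, -), the medium-chain enzyme, was at 13.4, 14.7, 9.23 and 8.95 CPM in CD and at 16.5, 17.8, 19.9 and 18.6 CPM in HFD. Acads (chr5:115110299-115119346, -), the short-chain enzyme, was at 3.54, 3.64, 2.56 and 1.31 CPM in CD and at 6.21, 6.03, 4.08 and 6.18 CPM in HFD. In both genes the diets did not overlap, and the lowest CD values were those of replicates 3 and 4. The log2 fold changes were 0.65 ± 0.24 for Acadm (edgeR, adjusted p = 0.32) and 1.02 ± 0.35 for Acads (adjusted p = 0.305). Without CD replicates 3 and 4 they were 0.36 and 0.64.

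Acadl, the long-chain enzyme, was at 26.7 to 31.8 CPM in CD and at 15.7, 31.1, 45.8 and 49.3 CPM in HFD. HFD replicates 3 and 4 were above every CD library and HFD replicate 1 was below every one. Its log2 fold change of 0.30 ± 0.34 (edgeR, adjusted p = 0.729) was -0.28 between the libraries numbered 1 and 2 and 0.79 between those numbered 3 and 4. Without CD replicates 3 and 4 it was 0.30, where that of Acadm was 0.36. Acadvl, the membrane-bound enzyme for very long chains, had means of 25.3 ± 3.68 and 25.7 ± 6.97 CPM, and its log2 fold change of 0.02 ± 0.26 turned to -0.12 under upper-quartile scaling. In bulk RNA of sorted cells, fewer cells of a type and less RNA per cell cannot be told apart, and this holds for every level given here.

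The later steps of the spiral have 4 members, the soluble enzymes Hadh and Acaa2 and the membrane complex for long chains, Hadha and Hadhb. The soluble pair had the larger fold changes, which covers these 4 genes alone, and the difference was not tested. Hadha and Hadhb encode the alpha and beta subunits of the mitochondrial trifunctional protein, and the promoter window of Hadhb shows how close their starts lie. Hadha was at 21.2 to 25.0 CPM in CD and 23.5 to 28.3 CPM in HFD, with a log2 fold change of 0.18 ± 0.21 (edgeR, adjusted p = 0.734). Hadhb was at 5.84 to 13.2 CPM in CD and 5.09 to 16.4 CPM in HFD, with a log2 fold change of -0.02 ± 0.39. Its value was 0.24 when scaled by library size alone, where the median of all genes was 0.42. The diets overlapped in both genes.

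Hadh (chr3:131233419-131272101, -), the soluble 3-hydroxyacyl-CoA dehydrogenase, was at 12.2, 11.9, 6.84 and 6.48 CPM in CD and at 16.8, 19.3, 19.0 and 14.2 CPM in HFD. Every HFD library was above every CD library, and again CD replicates 3 and 4 were the lowest. The log2 fold change was 0.89 ± 0.28 (edgeR, unadjusted p = 0.0105, adjusted p = 0.28), and 0.52 without those libraries. Acaa2 (chr18:74779197-74806208, +), the thiolase that releases acetyl-CoA in mitochondria, was at 26.8, 21.8, 26.2 and 19.4 CPM in CD. In HFD it was at 53.6, 38.5, 40.3 and 49.3 CPM. The diets were far apart in this gene and CD replicates 3 and 4 lay among the other CD libraries. Means were 23.5 ± 3.54 and 45.4 ± 7.22 CPM, and the log2 fold change was 0.95 ± 0.24 (edgeR, unadjusted p = 0.0023, adjusted p = 0.244). Leaving out CD replicates 3 and 4 gave 0.90, replicate numbers 1 and 2 alone gave 0.93, and numbers 3 and 4 alone 1.06. DESeq2 gave an adjusted p of 0.00918. The FPKM of Acaa2 did not overlap either, with 8.29 to 15.7 in CD and 20.3 to 61.3 in HFD.

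Decr1 and Eci1 act on unsaturated fatty acids, whose double bonds must be reduced or shifted before the spiral can go on. Decr1 (chr4:15917240-15945507, -), the mitochondrial 2,4-dienoyl-CoA reductase, was at 8.71, 7.47, 2.66 and 3.42 CPM in CD and at 17.2, 13.7, 11.3 and 9.23 CPM in HFD. The diets did not overlap, although CD replicate 1 came close to HFD replicate 4. Its log2 fold change of 1.20 ± 0.40 (edgeR, adjusted p = 0.291) was 0.67 without CD replicates 3 and 4, and its adjusted p was 0.0378 with a term that separates replicate numbers 1 and 2 from 3 and 4. That term gave 3 members an adjusted p under 0.05 (Angptl4, Decr1 and Acot1), all higher, against 1.03% of all genes called higher and 1.02% lower. Eci1, the mitochondrial enoyl-CoA isomerase, was at 11.4 to 22.2 CPM in CD and 15.6 to 31.0 CPM in HFD, with a log2 fold change of 0.48 ± 0.31 (adjusted p = 0.524).

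Of the peroxisomal members only Acaa1a had enough counts for a test, and its mean was lower in HFD in TMM-scaled CPM. Acaa1a, a thiolase, was at 32.4 to 43.7 CPM in CD and 26.4 to 35.8 CPM in HFD, with a log2 fold change of -0.27 ± 0.23 (edgeR, adjusted p = 0.621). That value became 0.07 when scaled by library size alone, where the median of all genes was 0.42. Reads of Acaa1a and its copy Acaa1b may be split, since 92.97% of the aligned bases of their transcripts are identical. Acaa1a also overlaps Myd88 on the other strand, which was at 36.3 to 102.7 CPM in CD and 20.6 to 35.8 CPM in HFD, and without strand marks reads of the overlap cannot be told apart. Acadvl, Hadha and Etfdh overlap Dvl2, Garem2 and 4930579G24Rik in the same way, and these were at 0 to 5.70 CPM. Ehhadh, the peroxisomal bifunctional enzyme and a PPAR alpha target in liver, had 9, 0, 4 and 0 counts in CD and 8, 0, 20 and 4 in HFD, and did not pass the filter.

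Electrons from the dehydrogenases pass to the electron transfer flavoprotein, encoded by Etfa and Etfb, and on to ubiquinone through Etfdh. All 3 genes had fold changes above 0, with a median of 0.48. Etfa (chr9:55454508-55512243, -) was at 37.9, 33.0, 27.2 and 23.0 CPM in CD and at 77.5, 52.3, 37.0 and 36.8 CPM in HFD. Within each replicate number HFD was the higher, but CD replicate 1 lay above HFD replicates 3 and 4. The log2 fold change was 0.75 ± 0.31 (edgeR, unadjusted p = 0.0354, adjusted p = 0.354). Etfb had means of 97.9 ± 23.0 and 137 ± 39.3 CPM and Etfdh of 9.67 ± 1.40 and 12.1 ± 2.99 CPM. The adjusted p was 0.522 for Etfb and 0.596 for Etfdh.

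**Figure D2:**
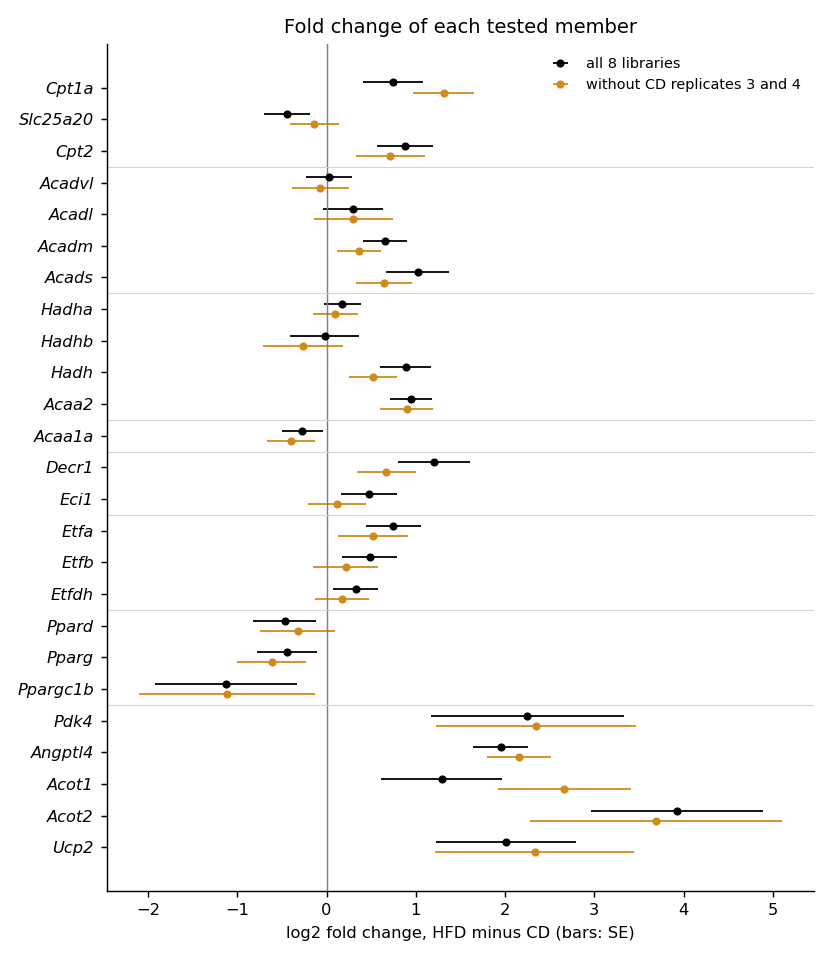
Log2 fold change, HFD minus CD, of the 25 tested members, with bars for the SE, in all 8 libraries (black) and without CD replicates 3 and 4 (orange). Horizontal lines separate the steps, and the 5 PPAR targets at the bottom lie between 1.29 and 3.92 in all 8 libraries.

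The receptors themselves were low and had no higher means in HFD. Ppard was at 1.80, 3.68, 2.62 and 4.11 CPM in CD and at 1.71, 1.87, 2.73 and 2.52 CPM in HFD. Pparg, the family member known for its part in alternative activation of macrophages, was at 2.81, 3.08, 1.92 and 2.73 CPM in CD and at 1.35, 1.62, 2.52 and 2.27 CPM in HFD. The diets overlapped in both receptors: HFD replicates 2, 3 and 4 lay within the CD range of Ppard, and HFD replicates 3 and 4 within that of Pparg. The log2 fold changes were -0.47 ± 0.35 for Ppard (edgeR, adjusted p = 0.58) and -0.45 ± 0.33 for Pparg (adjusted p = 0.579), and that of Pparg was -0.98 for the libraries numbered 1 and 2 but 0.13 for 3 and 4.

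Ppara, the receptor that drives fatty acid oxidation in liver, had 8, 4, 15 and 9 counts in CD and 14, 0, 0 and 7 in HFD, and did not pass the filter. The coactivator Ppargc1a, known as an inducer of mitochondrial genes, did not pass either, with 12, 4, 39 and 41 counts in CD and 0, 0, 6 and 7 in HFD. Most of its counts came from CD replicates 3 and 4. Its relative Ppargc1b was at 0.348 to 0.945 CPM in CD and 0.0744 to 0.617 CPM in HFD, with a log2 fold change of -1.13 ± 0.80 (edgeR, adjusted p = 0.551). None of the 3 tested genes of this group had a fold change above 0.

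The 5 PPAR targets had the largest fold changes of the members, with a median of 2.01. Of the 5, 3 were at an unadjusted p under 0.05, and the libraries behind the difference were not the same from gene to gene. Angptl4 (chr17:33773750-33781830, -), a secreted protein that inhibits lipoprotein lipase, had 1.93, 1.48, 1.66 and 2.84 CPM in CD. In HFD it was at 9.68, 8.23, 5.86 and 6.73 CPM. The lowest HFD library was above the highest CD library by more than the whole CD range. The means were 1.98 ± 0.604 and 7.62 ± 1.68 CPM, and the log2 fold change was 1.95 ± 0.31. Its unadjusted p of 7.75e-05 was the 9th smallest of the 17367 genes, and its adjusted p was 0.15 by edgeR. Without CD replicates 3 and 4 the log2 fold change was 2.16. Replicate numbers 1 and 2 alone gave 2.40, numbers 3 and 4 gave 1.57, and the value lay between 1.15 and 2.51 under the 22 alternatives. Its adjusted p was 2.02e-05 by DESeq2, 0.0271 with the term for the division of replicate numbers, and 0.617 by limma on log2(FPKM + 1). On FPKM it was at 0.288 to 0.509 in CD and 1.18 to 4.73 in HFD.

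Acot1 and Acot2 are neighbours on chromosome 12 that encode a cytosolic and a mitochondrial acyl-CoA thioesterase, which release free fatty acids from coenzyme A. Acot2 (chr12:83987861-83993873, +) was at 2.29, 1.94, 1.39 and 1.49 CPM in CD and at 88.9, 3.30, 8.00 and 8.37 CPM in HFD. The diets did not overlap, but HFD replicate 1, with 8437 counts, was far above the other 3, which had 222 to 337. The log2 fold change of 3.92 ± 0.97 (edgeR, unadjusted p = 0.0022, adjusted p = 0.244) was 1.87 without that library, 2.71 with a block for replicate number, and 2.59 within replicate numbers 3 and 4. Acot1 (chr12:84009490-84018371, +), whose start lies 15617 bases past the end of Acot2, was at 0.862, 0.704, 2.92 and 3.82 CPM in CD and at 1.94, 2.28, 6.15 and 9.81 CPM in HFD. Replicates 3 and 4 were the higher ones on both diets, so the groups overlapped. Within numbers 1 and 2, and within numbers 3 and 4, the HFD libraries lay above the CD libraries. Its log2 fold change of 1.29 ± 0.68 (adjusted p = 0.444) came to 2.66 when CD replicates 3 and 4 were left out, and was 1.43 for replicate numbers 1 and 2 and 1.33 for 3 and 4. HFD replicate 1 was the highest library for Acot2 and the lowest HFD library for Acot1. The longest transcripts of the pair shared 24.55% of the 50-base words of Acot2, so some reads could be assigned to either gene. With a block for replicate number the unadjusted p of Acot1 was 0.00163, and 0.085 without it.

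**Figure D3:**
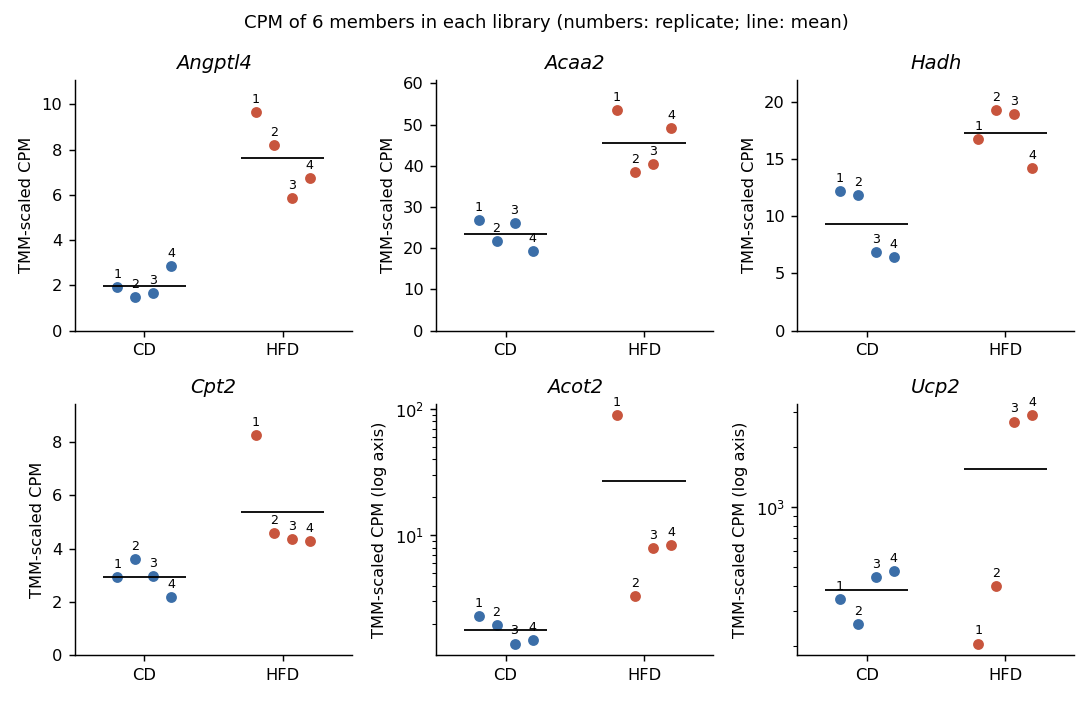
TMM-scaled CPM of Angptl4, Acaa2, Hadh, Cpt2, Acot2 and Ucp2 in each library, with replicate numbers beside the points and lines at the mean. The axes of Acot2 and Ucp2 are logarithmic. In Angptl4, Acaa2, Hadh, Cpt2 and Acot2 all HFD points lie above all CD points, while Ucp2 is high in HFD replicates 3 and 4 alone.

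Ucp2 (chr7:100493337-100502020, +), an inner-membrane carrier related to the uncoupling protein of brown fat and abundant in macrophages, was at 345, 260.0, 445 and 475 CPM in CD. In HFD it was at 207, 401, 2679 and 2872 CPM. HFD replicates 3 and 4 were several times above every other library, and HFD replicate 1 was below every CD library in TMM-scaled CPM. In FPKM HFD replicates 1 and 2 were at 51.2 and 58.4, above the 34.9 to 44.0 of CD, so that order depends on the scaling. The log2 fold change of 2.01 ± 0.78 (edgeR, unadjusted p = 0.0274, adjusted p = 0.328) was 0.01 between the libraries numbered 1 and 2 and 2.68 between those numbered 3 and 4, and 1.303 with a block for replicate number, where the unadjusted p was 0.106. The macrophage gene C1qa, a complement subunit, was at 1989, 1649, 289.6 and 271 CPM in CD and 797, 1913, 7398 and 8858 CPM in HFD. Apoe, an apolipoprotein made by macrophages, was at 14176, 8042, 3149 and 6037 CPM in CD and 4007, 11052, 24202 and 55663 CPM in HFD. Both were highest in HFD replicates 3 and 4, as Ucp2 was, but in CD they were higher in replicates 1 and 2, where Ucp2 was the lower. Their part in the Ucp2 values was not tested. Dnajb13, which overlaps Ucp2 on the other strand, was at 0.664 to 2.91 CPM. Pdk4, a kinase that shuts off pyruvate dehydrogenase, was rare, with 14, 5, 12 and 0 counts in CD and 12, 33, 70 and 47 in HFD. Its log2 fold change was 2.25 ± 1.08 (adjusted p = 0.411), and HFD replicate 1 lay within the CD range.

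Levels per transcript length are given as the authors' FPKM. Over all 8 libraries the highest means were those of Ucp2 at 104.6 and Etfb at 93.2 FPKM, followed by Etfa at 22.9, Acaa2 at 22.1 and Acadl at 13.4. Acot2 came next at 9.95, a mean set by 70.2 FPKM in HFD replicate 1 where the other 7 libraries were at 0.387 to 2.93. In CD alone the order was Etfb at 67.3 ± 28.8, Ucp2 at 40.5 ± 4.33, Etfa at 13.1 ± 5.23, Acaa2 at 12.04 ± 3.24 and Acadl at 11.1 ± 2.24 FPKM. The last 3 do not differ beyond their spread, and neither do Etfb and Ucp2. Within the carnitine shuttle in CD, Slc25a20 stood at 4.14 ± 0.0989 FPKM, above Cpt1a at 0.986 ± 0.205 and Cpt2 at 0.957 ± 0.369, and the latter pair do not differ beyond their spread. Among the receptors Pparg was at 0.661 and Ppard at 0.296 FPKM over all libraries, and Ppara was at 0.0348. In FPKM 6 members had all HFD libraries above all CD libraries (Cpt1a, Acadl, Acaa2, Angptl4, Acot2 and Ucp2), against 3.4% of all genes tested, and 0 had all below, against 2.6%. Acaa2, Angptl4 and Acot2 did so in both FPKM and CPM. FPKM are scaled by library total without TMM, and the TMM factor of HFD replicate 1 was 2.02 against 0.69 to 1.21 in the others.

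**Figure D4:**
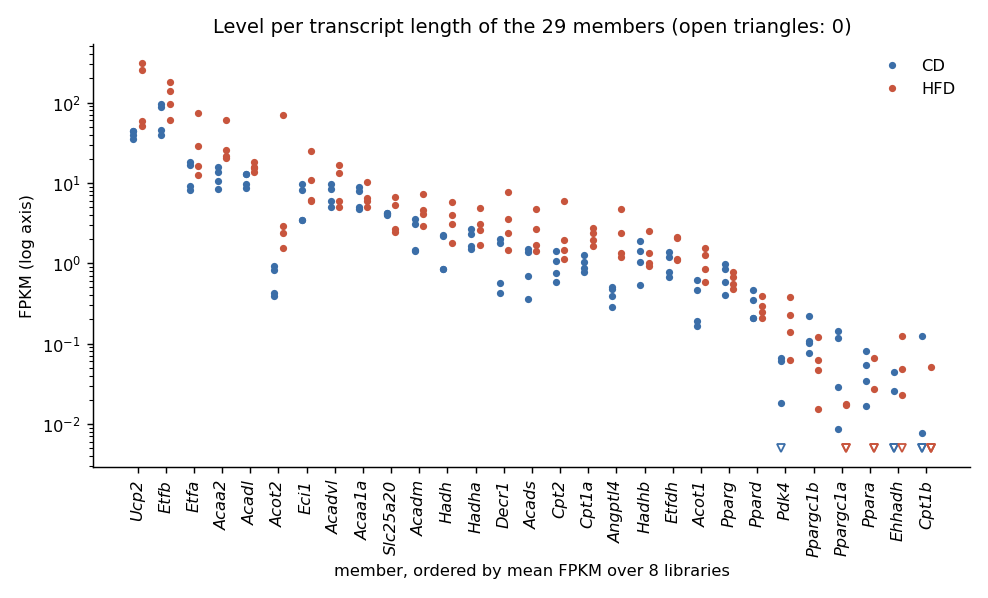
FPKM on a log axis of the 29 members, ordered by their mean over 8 libraries, with CD in blue and HFD in red and open triangles for libraries at 0. Ucp2 and Etfb lead at 104.6 and 93.2 FPKM, and the red point of Acot2 that stands alone is HFD replicate 1 at 70.2 FPKM.

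Within each pair of replicate numbers the comparison has 2 libraries per diet. The median log2 fold change of the members was 0.29 for numbers 1 and 2 and 0.79 for numbers 3 and 4. Within numbers 1 and 2, 10 members were higher at an unadjusted p under 0.05, against 6.61% of all genes, and 2 were lower (Pparg and Ppargc1b), against 5.48%, with 0 past an adjusted p of 0.05 by edgeR. Within numbers 3 and 4, 12 members rose by edgeR's adjusted p, against 11.5% of all genes, and Slc25a20 alone of the members fell, against 16.5%. The 12 were Cpt1a, Acadl, Acadm, Acads, Hadh, Acaa2, Decr1, Etfa, Angptl4, Acot1, Acot2 and Ucp2. In that comparison the CD libraries were the ones rich in neutrophil transcripts, and the part of this in the members' values was not tested there. Angptl4, Acaa2, Acot2, Acot1, Cpt1a, Cpt2, Acads, Decr1 and Pdk4 had log2 fold changes of at least 0.72 in both pairs of replicate numbers. That cut is the value of Cpt1a within numbers 3 and 4, and the share of all genes that reach it was not computed. Pdk4 was at 0.84 ± 1.14 (SE) within numbers 1 and 2. The difference between the pairs of replicate numbers was not tested.

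**Figure D5:**
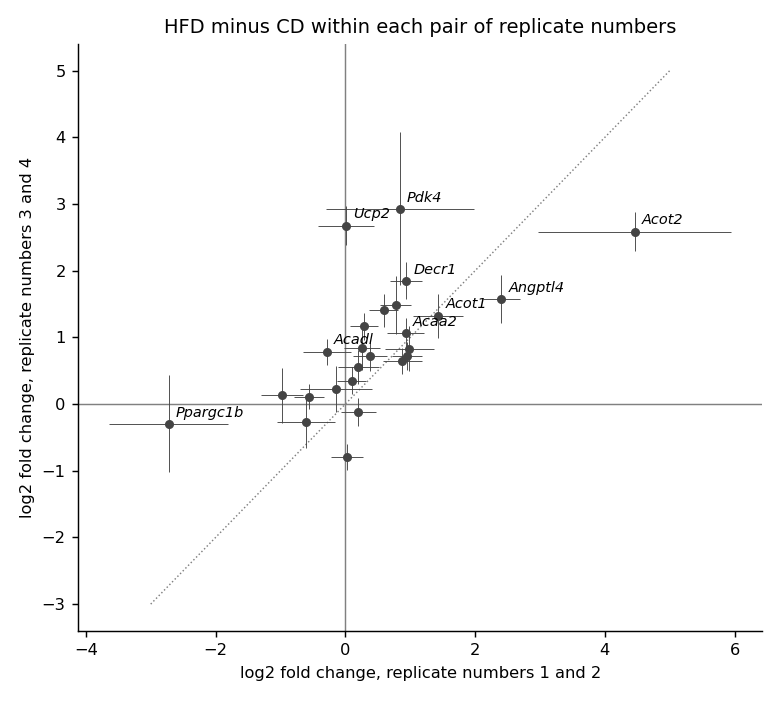
Log2 fold change, HFD minus CD, of the 25 tested members within replicate numbers 1 and 2 (horizontal) and within 3 and 4 (vertical), with bars for the SE and a dotted line of equal change. Angptl4 and Acot2 are high on both axes, and Ucp2 is at 0.01 on the horizontal and 2.68 on the vertical axis.

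Of 85 further genes listed for the pathway and its control, 83 were in the table and 69 were tested, with a median log2 fold change of 0.32. By edgeR 0 passed the adjusted p. At an unadjusted p under 0.05, 12 were higher and 1 lower, against 5.31% and 7.56% of all genes. Without CD replicates 3 and 4 these counts were 5 and 2, against 2.92% and 2.58% of all genes. The smallest p was that of Slc27a1, a fatty acid transport protein, at 10.1 ± 0.576 CPM in CD and 32.9 ± 5.21 CPM in HFD, with no overlap (log2 fold change 1.70 ± 0.22, adjusted p = 0.0941). Among 13 tested PPAR targets outside the members, Cd36, a scavenger receptor that takes up fatty acids, was at 11.7 ± 1.902 and 21.4 ± 6.89 CPM. Lpl, the lipoprotein lipase that Angptl4 inhibits, was at 12.2 ± 3.00 and 7.04 ± 2.21 CPM (log2 fold change -0.79 ± 0.31, unadjusted p = 0.0264 by edgeR). Of 14 tested genes of peroxisomal oxidation 4 were higher at an unadjusted p under 0.05 and 0 lower, led by Pecr, a peroxisomal enoyl-CoA reductase, at 2.18 ± 0.534 and 5.32 ± 2.67 CPM. Decr2, the peroxisomal relative of Decr1, was at 3.69 ± 0.584 and 6.08 ± 0.731 CPM, and Cat, catalase, at 8.61 ± 2.47 and 14.4 ± 1.05 CPM. In the pyruvate dehydrogenase kinase family, Pdk2 was at 1.43 ± 0.736 and 4.82 ± 0.988 CPM without overlap (log2 fold change 1.74 ± 0.41, edgeR adjusted p = 0.244). Of 12 other genes of the mitochondrial steps only Eci2, a relative of Eci1, was at an unadjusted p under 0.05, with 8.23 ± 2.30 and 16.04 ± 5.64 CPM. Of 9 genes of fatty acid activation and carnitine handling only Crot was, a peroxisomal carnitine octanoyltransferase, with 4.47 ± 0.569 and 7.35 ± 2.32 CPM. Among 16 PPAR partners and corepressors Rxrb, a retinoid X receptor, was at 5.99 ± 1.53 and 10.1 ± 1.16 CPM, and Lpin1, a coactivator and phosphatidate phosphatase, at 2.08 ± 0.402 and 3.57 ± 1.02 CPM. Of the 16, 8 had a log2 fold change above 0, with a median of 0.11 and a lowest value of -1.59. At an unadjusted p under 0.05 by edgeR 2 of them were higher and 0 lower, against 5.31% and 7.56% of all genes. For comparison, the median log2 fold change was 0.31 over 17 genes of the tricarboxylic acid cycle and 0.22 over 22 genes of the respiratory chain. Without CD replicates 3 and 4 these were 0.03 and 0.01, where the 25 members stood at 0.36. For the libraries numbered 3 and 4 they were 0.63 and 0.65, where the members stood at 0.79. There 12 of the 39 genes were past edgeR's adjusted p, all higher, against 11.5% of all genes called higher.

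Markers of other cells differed between the libraries as well. Hepatocytes oxidise fatty acids and carry several of these genes. Their 20 listed markers summed to 93.6 to 161 CPM in CD and 37.1 to 76.6 CPM in HFD. Of 15 tested hepatocyte markers an unadjusted p under 0.05 was reached by 10, all of them lower, against 7.56% of all genes. Without CD replicates 3 and 4, 7 of the 15 were lower and 0 higher at that p by edgeR, against 2.58% and 2.92% of all genes. Tat, Cps1 and Hnf4a were near the floor, at 0 to 0.498 CPM in every library, so the sums came from other markers on the list. With the hepatocyte level as a covariate the median log2 fold change of the members was 0.07 and 4 members were higher at an unadjusted p under 0.05 by edgeR, against 5.67% of all genes. These were Cpt1a, Angptl4 and Ucp2, which are among the 11 named without it, and Acot1, which is not. The covariate was the mean log2 CPM of the 15 tested hepatocyte markers, at 2.49 ± 0.547 (SD) in CD and 0.972 ± 0.371 in HFD. It differed by diet, as did the hepatocyte sums, which do not overlap, so this covariate and the diet cannot be told apart. The 10 listed Kupffer cell genes, of the resident liver macrophage, summed to 179 to 310 CPM in CD and 338 to 671 CPM in HFD. Of the 10, 6 were higher at an unadjusted p under 0.05 in the test on diet alone, against 5.31% of all genes. Among them Clec4f, which defines Kupffer cells, was at 48.0 ± 13.9 and 112 ± 44.6 CPM. Without CD replicates 3 and 4, 2 of the 10 Kupffer cell genes were higher at that p by edgeR, against 2.92% of all genes. The 8 macrophage genes summed to 6214 to 28967 CPM in CD and 9899 to 96395 CPM in HFD. Their part, and that of the Kupffer cell genes, in the members' values was not tested. Neutrophil genes were high in CD replicates 3 and 4, as given above, and with their level as a covariate 7 members were higher at an unadjusted p under 0.05, against 4.29% of all genes, with a median log2 fold change of 0.43. The remaining lists were low except for the monocyte one, at 1536 to 24375 CPM in CD and 907 to 4816 CPM in HFD. The sums in CD and HFD were 20.9 to 25.5 and 5.86 to 18.9 CPM for T and NK cells, 5.81 to 15.3 and 3.05 to 5.89 CPM for carcinoma and epithelium, and 2.51 to 9.03 and 0.357 to 2.21 CPM for adipocytes and muscle.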

How the data were processed

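RNA of sorted macrophages was sequenced in 8 libraries, 4 per diet. Per the labels' protocols, cDNA was primed with oligo(dT), made with SMARTer chemistry and amplified by PCR, and neither molecular identifiers nor a strand-marking step are described, so counts are of amplified reads. Cutadapt 1.9, StringTie 1.3.4d and HISAT2 2.0.4 are named in the submitters' processing notes. For the genome build, the sources used here give none. The table deposited by the authors holds, per the file headers, raw counts per gene and FPKM, which the authors computed from fragments, transcript length and library total. Positions are those of the deposited table, and 27 of 29 members have the same start and end in GENCODE M21 (GRCm38).

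The counts were tested with edgeR 4.0.16 in R 4.3.3: filterByExpr, TMM scaling, a quasi-likelihood F test with diet as the only term, two-sided, and Benjamini-Hochberg adjustment over 17367 genes. The procedure was run on simulated data with set changes. That run does not measure how many true changes would be missed at the spread of these libraries. The tested genes hold 99.61% to 99.94% of the counts. CPM are scaled by TMM, and log2 CPM use a prior count of 2. Symbols were matched by name (242 of 244 listed were found). All members are accounted for, and of each other pathway list at most 3 genes with the smallest p are named. The members and lists were chosen with earlier results of these data known, so no p is adjusted over a list and no list is tested as a set. The marker genes C1qa, Apoe and Clec4f were named after their values were seen.

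Each library is labelled as a separate sample, and the labels do not say whether mice were pooled, so p-values measure the spread between these libraries. Deviations from the group means correlated between same-numbered CD and HFD libraries at 0.11, 0.292, 0.22 and 0.183. Differently numbered libraries from the same side (1 and 2, or 3 and 4) reached 0.16 to 0.318. These values therefore do not set a pairing by number apart from the division into sides. The main test took the libraries as unpaired, and a block for replicate number was run as an alternative. The sources used here do not say what the replicate numbers stand for. Other alternatives were DESeq2 1.42.0, scaling by library size or upper quartile, no filter, leaving out each library or CD replicates 3 and 4, a term for numbers 1 and 2 against 3 and 4, fits within each pair of numbers, the mean of the hepatocyte or neutrophil list as a covariate, and limma 3.58.1 on log2(FPKM + 0.1) and on log2(FPKM + 1), the latter also with a minimum mean FPKM of 1. After the data were seen, the counts of groups that do not overlap were also taken under other scalings, and the other lists were followed in the fits without CD replicates 3 and 4 and within pairs of numbers. Promoters were scanned with Biopython 1.88 and pandas 2.3.3.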

Additional observations from a re-analysis of the deposited data

Results flagged for a closer look

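Of 58 groups of 4 libraries, 1 per member and diet, 5 held a library whose distance from its nearest neighbour was, as a share of the group's range, past Dixon's 95% critical value. Chance flags about 5% of groups of normally spread values, which does not cover genes near the floor such as Cpt1b. Counts in HFD replicate 1 alone, as for that gene, are flagged whatever their number. Acot2 was at 88.9 CPM in HFD replicate 1, where the other 3 HFD libraries were at 3.30 to 8.37 CPM. Cpt2 was at 8.27 CPM in the same library, against 4.30 to 4.58 CPM in the other 3. Acads was at 4.08 CPM in HFD replicate 3, below the 6.03 to 6.21 CPM of the others. Cpt1b was at 0.447 CPM in CD replicate 2 and at 0.105 CPM in HFD replicate 1, from 26 and 10 counts, where the other libraries of those diets were at 0 to 0.0728 CPM.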

How the results depend on the processing

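Leaving out 1 library at a time, 0 members passed the adjusted p in either direction, 8 to 12 were higher (3.19% to 5.65% of all genes) and 0 lower at an unadjusted p under 0.05, and the median log2 fold change was 0.55 to 0.69. With the replicate block these were 0, 11 (7.31% of all genes), 0 and 0.68. The block changed no call by adjusted p, but among the 11 Acot1 took the place of Ucp2. By adjusted p 3 members were higher by DESeq2, 2 without a filter (Angptl4 and Acot2, where 119 of 42649 genes were higher and 296 lower), 3 with the term for the division of replicate numbers (Angptl4, Decr1 and Acot1), and 12, with 1 lower, within numbers 3 and 4. At an unadjusted p under 0.05, 5 were higher without CD replicates 3 and 4, 4 with the hepatocyte and 7 with the neutrophil covariate, and the lower count was 1 under upper-quartile scaling (Slc25a20), 2 within numbers 1 and 2 and 1 within 3 and 4. The median was 0.99 scaled by library size, where that of all genes was 0.42, 0.36 without CD replicates 3 and 4, 0.29 within numbers 1 and 2, 0.0682 and 0.43 with the hepatocyte and neutrophil covariates, and 1.01 by limma on log2(FPKM + 0.1), where that of the same genes was 0.30. Over all genes, library-size scaling gave 6.24% higher and 3.56% lower at an unadjusted p under 0.05, and upper-quartile scaling 3.49% and 10.0%, where TMM gave 5.31% and 7.56%. Signs reversed as follows, also for Cpt2, Hadh, Decr1 and Etfa, which are among the 11. Slc25a20 was at 0.0571 by library size, 0.0254 within numbers 1 and 2 and 0.0868 with the hepatocyte covariate. That covariate also gave -0.11 for Cpt2, -0.37 for Acadvl, -0.0109 for Hadha, -0.0382 for Hadh, -0.61 for Decr1, -0.77 for Eci1 and -0.42 for Etfa. Acadvl was at -0.0111 by DESeq2, -0.12 by upper quartile, -0.0705 without CD replicates 3 and 4, -0.0026 with the replicate block, -0.0012 with the division term, -0.11 within numbers 3 and 4, -0.094 with the neutrophil covariate, and -0.14 to 0.16 with 1 library left out. Acadl was at -0.28 within numbers 1 and 2, and Pparg at 0.13 within 3 and 4. Hadhb was at 0.24 by library size, 0.0659 without a filter, 0.23 within numbers 3 and 4, 0.13 by limma on log2(FPKM + 1) with and without the minimum, 0.24 with 0.1, and -0.35 to 0.21 with 1 library left out. Acaa1a was at 0.0748 by library size, 0.11 within numbers 3 and 4, 0.0695 by limma with 1, with and without the minimum, and 0.0798 with 0.1. The cause of these changes was not tested. In the fits within a pair of numbers 2 libraries per diet give the spread. Members with few counts (Cpt1b, Ehhadh, Ppara, Ppargc1a) give no test at this depth.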
